A study of Mus musculus with 2 samples.

Results

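The genes described are 8 secreted antagonists of Wnt signalling, Wif1, Sfrp1, Sfrp2, Sfrp4, Sfrp5, Frzb, Dkk2 and Dkk3, in single cells of mouse limb tendon. They were taken by name from the 27998 genes of the count tables, and all 8 were found in both libraries. Wnt ligands are secreted glycoproteins that act on Frizzled receptors together with the co-receptors Lrp5 and Lrp6. WIF1 and the secreted frizzled-related proteins (the SFRPs and FRZB) bind Wnt ligands outside the cell, and the Dickkopf proteins bind the co-receptors, with the exception of DKK3, a divergent member whose action on Wnt signalling is less settled. Wif1 is known as a gene of tendon and cartilage cells, and the SFRPs as products of connective tissue fibroblasts.

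Limb tendons were collected at P7 from pups with conditional deletion of Tgfbr2, the type II TGFβ receptor, by ScxCre, and from control pups. Fore- and hindlimb tendons of 2 pups were pooled for each library, the cells were released with enzymes, and 3′ mRNA ends were counted with the 10x Genomics Chromium system, so that a unique molecular identifier (UMI) counts each captured molecule once. The study asked how tendon cells change when they lose TGFβ signalling. There was 1 library per condition, called here the wild-type and the mutant library after their labels, although another label of the control calls it heterozygous. All mice of the study also carried the tendon reporter ScxGFP and the Cre reporter Ai14 Rosa26-tdTomato (RosaT), including the controls. ScxCre acts in cells that express Scx, the tendon transcription factor scleraxis, and its activity was described as uneven in embryonic tendon cells and as reaching all of them only early after birth, with the receptor protein nearly lost from mutant tendons by birth. Transcripts of ScxGFP are counted as Scx in these data, so the Scx counts mark cells but do not give the level of the endogenous gene.

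Cells were put in classes from their own counts. A cell with 30 or more Scx UMIs per 10000 was called Scx-high, any other cell with 5 or more UMIs over Ly6a, Cd34, Dpt, Lum and Col3a1 was called a Scx-low fibroblast, and the remaining cells were called other cells. Levels are UMIs of a gene per 1000000 UMIs of the class, written CPM for counts per that number. The wild-type library held 2364 cells and 9451606 UMIs, with 1178 Scx-high cells, 828 Scx-low fibroblasts and 358 other cells. The mutant library held 2592 cells and 8250248 UMIs, with 235 Scx-high cells, 1910 Scx-low fibroblasts and 447 other cells. Median depth lay between 1985 and 4285.5 UMIs per cell over the 6 classes, and 2 cell barcodes occurred in both libraries. Tnmd, which the rule did not use, stood at 7393 and 5404 CPM in Scx-high cells of the wild-type and mutant library. The tenocyte list includes Scx itself, which gave 125020 of its 201105 UMIs in wild-type and 30255 of 41827 in mutant Scx-high cells. The list is therefore no support for the class. The classes were not equal in kind between the libraries. The study reported Ly6a, Cd34, Dpt, Lum and Col3a1 as raised in mutant cells that had lost tendon markers, which it traced to tenocytes. The mutant Scx-low fibroblast class can therefore hold such cells beside resident fibroblasts, and their share was not tested. Ratios between the fibroblast classes need not compare 1 cell type. Of the fibroblasts, 229 wild-type and 627 mutant cells held 2 or more Tnmd UMIs. The pericyte and smooth muscle list stood at 4961 CPM in wild-type and 628 in mutant fibroblasts. Of the Scx-high cells, 16.2% in the wild-type library and 77.4% in the mutant library also had 5 or more UMIs of the fibroblast genes. The study proposes that cells with ScxGFP in mutant tendons at P7 were newly recruited, some with weak or no RosaT. Mutant Scx-high cells need therefore not be the counterparts of the wild-type tenocytes. Tgfbr2 itself was at 30.9 and 45.2 CPM in wild-type and mutant Scx-high cells and at 64.8 and 72.6 in fibroblasts, so it was not lower in the mutant library, but 3′ counts need not show the loss of an upstream exon. With 1 library per condition no test was possible, and differences between genotypes and between libraries cannot be told apart. Each interval is an exact 95% interval for counting error only. Near the Scx threshold lay 42 wild-type and 27 mutant cells at 20 to 30 Scx UMIs per 10000 and 28 and 26 at 30 to 40. Cells at 30 to 40 were a larger part of the 235 mutant than of the 1178 wild-type Scx-high cells. With the threshold at 15 or 60 per 10000, the class held 1266 or 1121 wild-type cells and 284 or 184 mutant cells.

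Immune and haemoglobin-rich cells gave the background, because they should make none of these proteins. Over 178 wild-type and 180 mutant immune cells, with median depths of 2376 and 1648 UMIs, each member had at most 4 UMIs, and the 8 together reached 17.2 and 17.7 CPM. Wif1 was found in 2.25% of the wild-type and in 0 of the 180 mutant immune cells, where 3 cells would be a share of 1.67% of cells with a UMI. Scx was not at background in the same sense, since 70.2% of wild-type immune cells held a Scx UMI and Scx stood at 541 CPM there, above its 404 in wild-type fibroblasts. Low Scx levels in the wild-type library were thus also found in cells that should lack the gene, and the part of free RNA in them was not tested.

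Wif1 (ENSMUSG00000020218, chromosome 10, 121033960 to 121100650, plus strand, GRCm38) and Sfrp2 (ENSMUSG00000027996, chromosome 3, 83766321 to 83774316, plus strand) were the members with the most UMIs in wild-type and mutant cells respectively, and the bases just upstream of their annotated starts are shown for that reason. RefSeq promoter windows of GRCm38.p6 were at hand for 5 of the 8 members, Wif1, Sfrp2, Sfrp5, Frzb and Dkk2. Capitals mark E-boxes (CANNTG, the same on both strands), the element that basic helix-loop-helix factors such as scleraxis bind.
Wif1, chr10:121033754-121033959, plus strand: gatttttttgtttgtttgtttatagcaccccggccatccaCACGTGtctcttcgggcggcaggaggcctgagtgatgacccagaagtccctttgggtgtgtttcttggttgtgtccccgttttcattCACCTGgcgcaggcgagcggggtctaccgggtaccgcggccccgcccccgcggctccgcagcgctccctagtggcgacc
Sfrp2, chr3:83766071-83766320, plus strand: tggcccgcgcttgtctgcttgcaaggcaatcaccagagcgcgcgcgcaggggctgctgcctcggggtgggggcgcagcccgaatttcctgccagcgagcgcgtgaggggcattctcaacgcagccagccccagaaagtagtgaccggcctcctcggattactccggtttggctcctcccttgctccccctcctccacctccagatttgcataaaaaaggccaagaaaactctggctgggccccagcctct
The Wif1 stretch of 206 bases held 2 E-boxes, CACGTG and CACCTG, and the Sfrp2 stretch of 250 bases held 0. In the windows of 300 bases Sfrp5 had 1 (CAGGTG, the reverse complement of CACCTG), Frzb had 1 (CAGCTG) and Dkk2 had 0. An E-box occurred in 72.3% of the 32851 RefSeq windows of 300 bases, with a median of 1 per window, and CACCTG in either orientation in 20.2%. A Smad-type CAGACA element, in either orientation, occurred in 21.0% of windows and in that of Sfrp2. A TCF-type CTTTGA element, in either orientation, occurred in 16.0% of windows and in that of Frzb. These matches describe the letters in the windows and say nothing of binding.

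The antagonists divided between the tendon and fibroblast classes in both libraries. By summed UMIs, Wif1 and Dkk3 were higher in Scx-high cells, and Sfrp1, Sfrp2, Sfrp4 and Dkk2 were higher in fibroblasts. By share of cells, Sfrp2 went the other way in the wild-type library. A Sfrp2 UMI was found in 24.1% of wild-type Scx-high cells and 13.9% of wild-type fibroblasts. With cells thinned to equal depth, these shares were 10.9% (9.14 to 12.9) and 8.92% (7.02 to 11.1). The mutant shares before thinning were 17.9% and 26.6%. Sfrp5 and Frzb were rare. A ratio was counted when it reached 2-fold with 50 or more UMIs over both sides. Of 6 members measured at that depth between the wild-type classes, 2 were 2-fold or more higher in Scx-high cells, where 4.77% of 8841 genes were, and 3 were 2-fold or more lower, where 19% of genes were. In the mutant library 7 members were measured, of which 1 was higher, against 4.37% of 8749 genes, and 5 were lower, against 11.7%. The minimum of 50 UMIs is over both sides. Sfrp1 and Sfrp4 in the wild-type library, and Sfrp1, Sfrp4, Sfrp5 and Dkk2 in the mutant library, met it through the fibroblasts alone, Sfrp5 with 59 UMIs there and 1 in Scx-high cells, so the counts are no support for a direction of the members. The median log2 ratio of Scx-high cells over fibroblasts was −0.86 for the members and −0.44 for all genes in the wild-type library, and −2.03 and −0.12 in the mutant library. These medians include the members that met the minimum through the fibroblasts alone, so they are no support for a direction either. Fibroblasts were 2-fold or more above other cells for 5 of 6 measured members in the wild-type library, where 35.3% of genes were, and for 6 of 7 in the mutant library, where 23.1% were. All measured members met the minimum through the fibroblasts alone here. Lower in fibroblasts by 2-fold or more were 0 members in the wild-type library, against 4.84% of genes, and Sfrp5 in the mutant library, against 6.53%. Between the other cells of the libraries, 0 members had 50 or more UMIs, where 7.85% of 4359 genes were 2-fold or more higher and 2.32% lower in the mutant library.

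**Figure D1:**
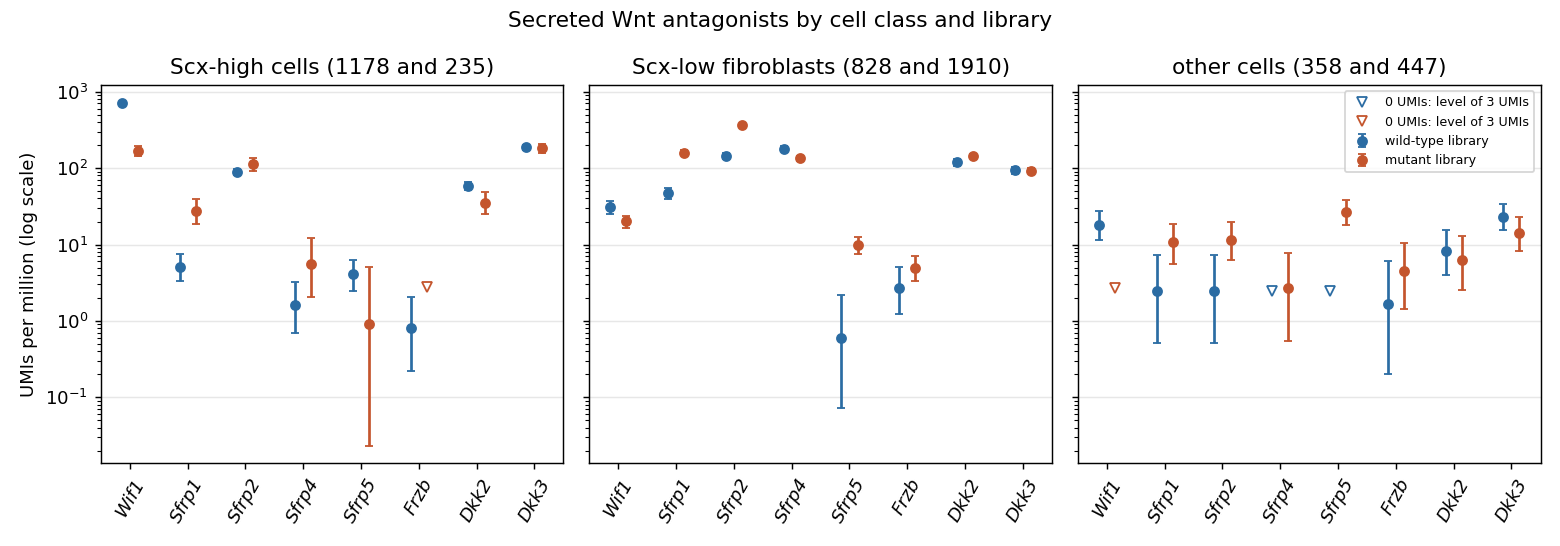
Level of each antagonist in CPM (log scale) in Scx-high cells, Scx-low fibroblasts and other cells, with the wild-type library in blue and the mutant library in orange. Points are summed UMIs with exact 95% Poisson intervals, open triangles mark genes with 0 UMIs at the level of 3 UMIs, and numbers in the titles are wild-type and mutant cells. Wif1 was at 706 CPM in wild-type and 166 in mutant Scx-high cells, and Sfrp2 at 145 and 362 in fibroblasts.

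Summed over all cells, the 8 genes made up nearly the same share of RNA in both libraries, 772 CPM in the wild-type library and 759 in the mutant library, but from different genes. Wif1 gave 49.2% of the antagonist UMIs in the wild-type library and 4.81% in the mutant library, and Sfrp2 gave 12.7% and 37.1%. Class by class, the sum was 1052 and 528 CPM in wild-type and mutant Scx-high cells and 617 and 926 in fibroblasts. Wif1 was 67.1% of the sum in wild-type Scx-high cells. Dkk3 was 34.3% and Wif1 31.5% of it in mutant Scx-high cells. Sfrp4, at 29.1%, was the leading member in wild-type fibroblasts, and Sfrp2, at 39.0%, in mutant fibroblasts. At least 1 antagonist UMI was present in 89.5% of wild-type and 69.4% of mutant Scx-high cells and in 63.6% and 68.1% of fibroblasts.

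**Figure D2:**
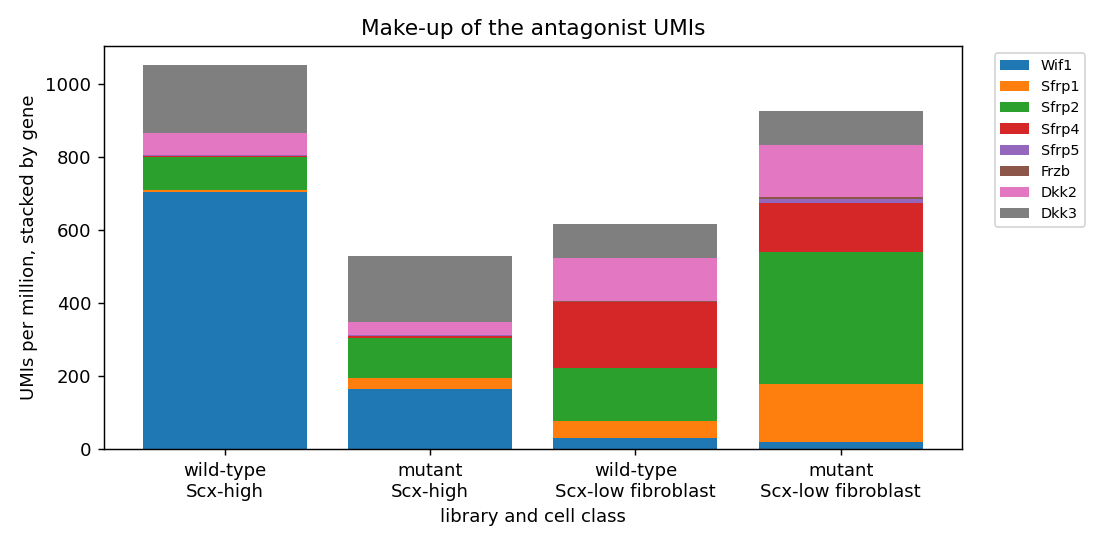
CPM of the 8 antagonists, stacked by gene, in Scx-high cells and Scx-low fibroblasts of each library. Bar heights are 1052, 528, 617 and 926 CPM from left to right, Wif1 is most of the first bar and Sfrp2 the largest piece of the last.

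Wif1, which encodes the secreted Wnt inhibitory factor, was the most abundant antagonist of wild-type tendon cells. The 1178 wild-type Scx-high cells held 3468 Wif1 UMIs, or 706 CPM (682 to 729), against 30.6 (25.0 to 37.2) in wild-type fibroblasts and 18.3 in other cells. The 235 mutant Scx-high cells held 180 UMIs, or 166 CPM (143 to 192), against 20.01 (16.6 to 23.9) in mutant fibroblasts and 0 UMIs in 447 other cells, where 3 cells would be a share of 0.671% of cells with a UMI at a median depth of 1985 UMIs. Scx-high cells were thus 23.1-fold (18.9 to 28.3) above fibroblasts in the wild-type and 8.31-fold (6.56 to 10.5) in the mutant library, and they held 96.5% and 59.8% of all Wif1 UMIs. Wif1 was 4.25-fold (3.65 to 4.96) lower in mutant than in wild-type Scx-high cells. It was 1.53-fold (1.16 to 2.01) lower in mutant than in wild-type fibroblasts. A single wild-type fibroblast held 17 of the 102 Wif1 UMIs of its class, and the most in a mutant fibroblast was 7. The counting interval does not allow for such clumping. The background of Wif1 differed too, at 8.58 CPM from 4 UMIs in wild-type immune cells against 0 UMIs in mutant immune cells. Over all cells with above 0 to under 10 Scx UMIs per 10000, the mutant to wild-type ratio was 1.81 (1.23 to 2.65). At 10 to under 30 it was 0.390 (0.205 to 0.700). The part of background and of mixed cells in the fibroblast difference was not tested. With the Scx-high cells that carried fibroblast UMIs left out, the ratio of mutant to wild-type Scx-high cells was 0.335 in place of 0.236.

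The lower Wif1 level of mutant Scx-high cells went with fewer cells that held the transcript. A Wif1 UMI was found in 76.8% (74.3 to 79.2) of wild-type and 23.8% (18.5 to 29.8) of mutant Scx-high cells, at median depths of 4285.5 and 4251 UMIs, and in 54.5% and 16.7% after each cell was thinned to 1500 UMIs. Cells with 6 or more Wif1 UMIs were 16.7% of wild-type and 4.26% of mutant Scx-high cells. The 5% of Scx-high cells with the most Wif1 held 20.2% of its UMIs in the wild-type library and 47.2% in the mutant library, where they were 12 cells. Such a share also rises when a gene has fewer UMIs per cell, so these values do not compare the libraries at equal level. In fibroblasts, 6.40% of wild-type and 3.51% of mutant cells had a Wif1 UMI, and 4.33% and 1.78% after thinning.

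Wif1 was higher in the upper bins of Scx in both libraries, and it reached a higher level in the wild-type library. From cells with no Scx UMI to cells with 300 or more per 10000, over the 6 bins of Scx, the wild-type Wif1 level was 7.85, 21.0, 123, 316, 724 and 797 CPM. The mutant level was 9.44, 37.9, 47.9, 134, 192 and 173 CPM. Up to 10 Scx UMIs per 10000 the mutant level was not below the wild-type level, and from 10 upward it was lower in each of the 4 bins. At 300 or more Scx UMIs per 10000, 335 wild-type cells stood against 66 mutant cells, and Wif1 was 4.62-fold (3.60 to 6.02) lower in the mutant cells. At 100 to under 300 the difference was 3.78-fold (2.96 to 4.89) and at 30 to under 100 it was 2.35-fold (1.69 to 3.32). Cells in the same bin differed in other ways, since 81.8% of mutant and 8.36% of wild-type cells at 300 or more Scx UMIs per 10000 held 5 or more fibroblast UMIs, and Scx counts include ScxGFP. The part of these differences in the Wif1 values was not tested. In the same top bins Dkk3 differed little, with mutant to wild-type ratios of 1.07 (0.826 to 1.37) at 100 to under 300 and 0.986 (0.744 to 1.29) at 300 or more. Dkk2 was lower in the mutant cells of both, with ratios of 0.498 (0.244 to 0.913) and 0.0741 (0.00184 to 0.431), the latter from 1 mutant UMI. Sfrp2 had ratios of 1.43 (1.04 to 1.95) and 0.628 (0.366 to 1.02).

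**Figure D3:**
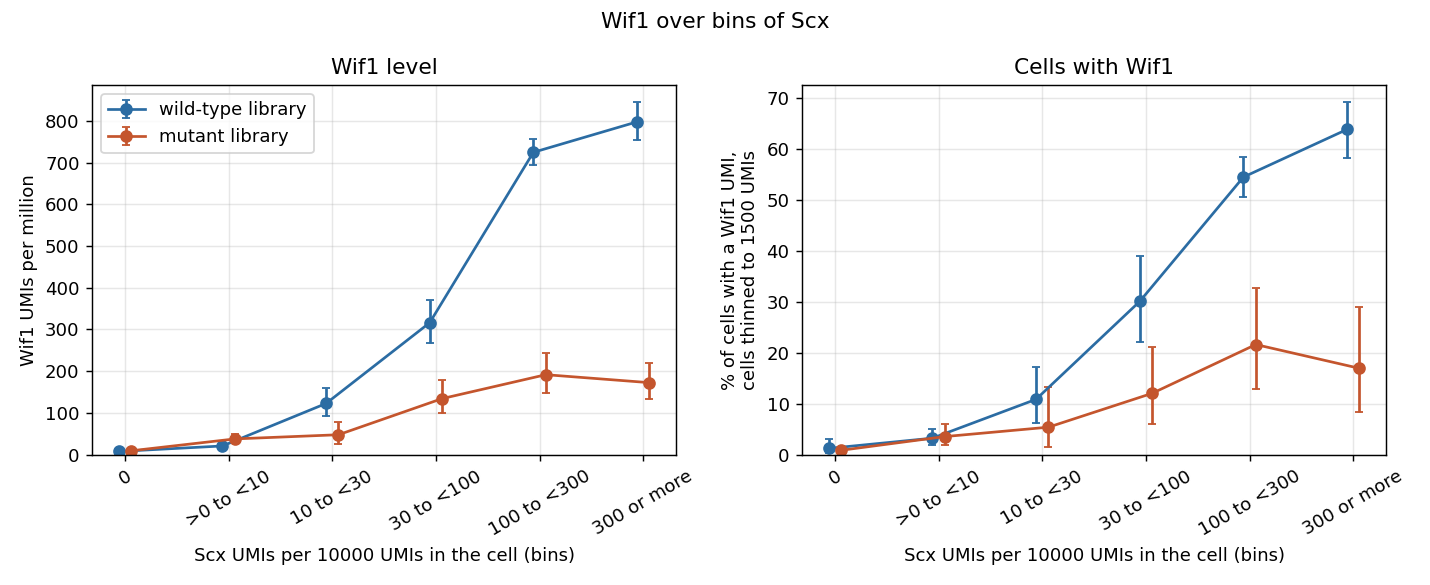
Wif1 over 6 bins of Scx UMIs per 10000 UMIs of a cell, wild-type library in blue and mutant library in orange. The left panel gives Wif1 CPM with exact Poisson intervals and the right panel the percent of cells with a Wif1 UMI after thinning to 1500 UMIs with exact binomial intervals. The wild-type level reaches 797 CPM and the mutant level 192 at most.

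Over single cells the rank correlation of Wif1 with Scx, both per UMI of the cell, was 0.69 over all 2364 wild-type and 0.26 over all 2592 mutant cells. Within Scx-high cells it was 0.24 over 1178 wild-type and 0.09 over 235 mutant cells. Within fibroblasts it was 0.10 over 828 wild-type and 0.15 over 1910 mutant cells. The classes were cut on Scx itself, which narrows its range within each class. The lower values within classes therefore do not show where the relation over all cells lay. Scx-high cells were 49.8% of the wild-type and 9.07% of the mutant cells, and the part of this in the values over all cells was not tested. These correlations describe cells that share a library, its depth and its free RNA. Wif1 in wild-type fibroblasts stood at 75.8 UMIs per 1000 Scx UMIs, against 27.7 in Scx-high cells, 15.9 in immune cells, from 4 Wif1 UMIs, and 51.7 in pericyte and smooth muscle cells, from 3, and the part of free RNA in it was not tested. The mutant fibroblasts had 124 per 1000, and the mutant immune cells had 0 Wif1 and 27 Scx UMIs.

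Wif1 was also read in Scx-high cells with and without Col2a1, the type II collagen gene. Col2a1 itself differed between the libraries, since 889 of 1178 wild-type but 29 of 235 mutant Scx-high cells held 2 or more of its UMIs, and the split was made with the Wif1 pattern known. The values by Col2a1 therefore describe where the Wif1 UMIs lay and are no test of a difference. With 2 or more Col2a1 UMIs, 889 wild-type cells had Wif1 at 733 CPM (706 to 760) and 29 mutant cells at 734 (598 to 892), a ratio of 1.002 (0.813 to 1.22). With under 2 Col2a1 UMIs, 289 wild-type cells had 594 CPM (546 to 645) and 206 mutant cells 83.6 (66.2 to 104), which is 7.11-fold (5.61 to 9.11) lower. The 29 mutant cells thus held 56.1% of the Wif1 UMIs of mutant Scx-high cells, and 23 of them had a Wif1 UMI. Their median Scx was 204 UMIs per 10000, against 237 in the corresponding wild-type cells. The minimum was not scaled to depth. Median depth under it was 3109 UMIs in wild-type and 4223 in mutant cells, against 4592 in wild-type cells with 2 or more Col2a1 UMIs. Under the minimum, 29.1% of wild-type and 79.1% of mutant cells also held 5 or more fibroblast UMIs. The part of depth and of these cells in the 7.11-fold difference was not tested. The near equality in cells with Col2a1 did not hold at a lower minimum. With a minimum of 1 Col2a1 UMI, which 70 mutant cells met, the ratio was 0.594 (0.497 to 0.706) above and 0.0956 (0.0678 to 0.132) below it, and with a minimum of 5 only 2 mutant cells were above it and the ratio below it was 0.233 (0.198 to 0.273). Both of these minimums were chosen after seeing the data.

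**Figure D4:**
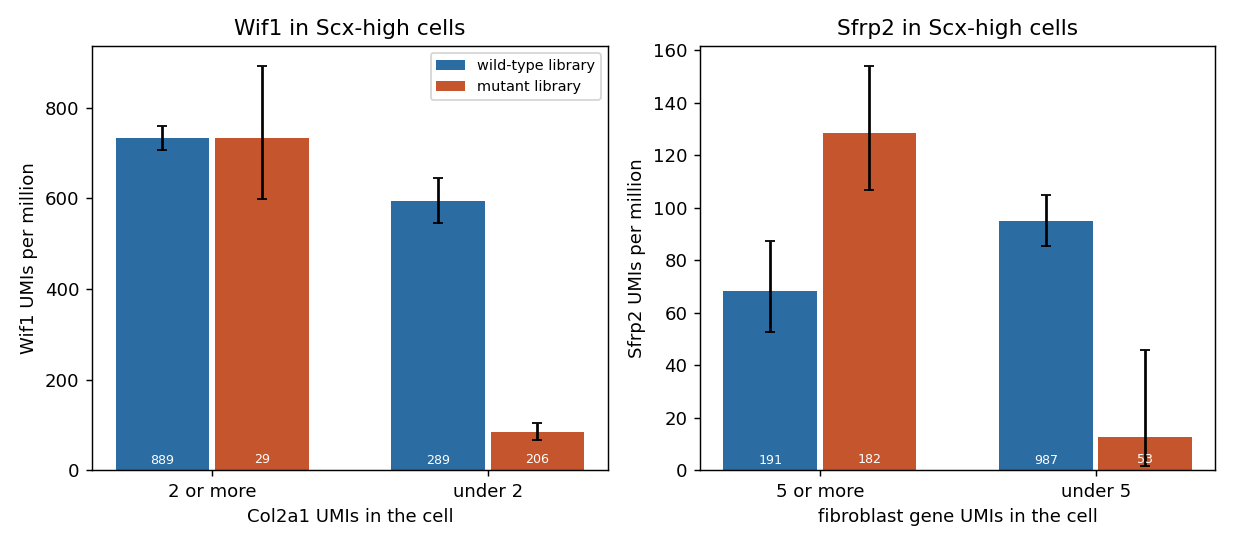
Left, Wif1 in Scx-high cells with 2 or more and under 2 Col2a1 UMIs. Right, Sfrp2 in Scx-high cells with 5 or more and under 5 UMIs over Ly6a, Cd34, Dpt, Lum and Col3a1. Bars are CPM with exact 95% Poisson intervals, blue for the wild-type and orange for the mutant library, and white numbers are cells. Wif1 is at 733 and 734 CPM in cells with Col2a1, and Sfrp2 at 94.8 and 12.7 in cells with under 5 fibroblast UMIs.

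Sfrp2, which encodes a secreted frizzled-related protein, was the leading antagonist of the mutant library. Wild-type fibroblasts had 484 Sfrp2 UMIs, or 145 CPM (133 to 159), and mutant fibroblasts 2187, or 362 (347 to 377), a ratio of 2.49 (2.26 to 2.75). It was found in 13.9% of wild-type and 26.6% of mutant fibroblasts, and in 8.92% and 21.4% after thinning. The ratio was 2.16 without the fibroblasts that carried 5 or more UMIs of an immune, endothelial, pericyte or Schwann list. Single wild-type fibroblasts reached 59 Sfrp2 UMIs, and the 5% of cells with the most Sfrp2 held 80.2% of its UMIs in wild-type and 54.2% in mutant fibroblasts. By the shares of cells with a UMI, Sfrp2 was found in more of the mutant fibroblasts, while the shares held by the top 5% also depend on its level.

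In Scx-high cells the level of Sfrp2 was 89.7 CPM (81.5 to 98.5) in the wild-type library and 112 (92.7 to 134) in the mutant library, a ratio of 1.25 (1.01 to 1.53). The difference had opposite directions in cells with and without fibroblast UMIs. Among Scx-high cells with 5 or more fibroblast UMIs, Sfrp2 was at 68.4 CPM in the wild-type library and 128.6 in the mutant library, a ratio of 1.88 (1.38 to 2.58). Among those with under 5, it was at 94.8 CPM from 376 UMIs in the wild-type and at 12.7 from 2 UMIs in the mutant library, a ratio of 0.134 (0.0162 to 0.487). The latter side rests on 2 UMIs in 53 mutant cells with a median depth of 2718 UMIs, against 4190 in the 987 wild-type cells. The fibroblast genes that make the split differed between the libraries themselves, as 182 of the 235 mutant and 191 of the 1178 wild-type Scx-high cells passed it, so these values are a description of the Scx-high class. In wild-type Scx-high cells Sfrp2 and Wif1 were found together as often as their shares would give by chance, in 65 of 1089 thinned cells where independence gives 64.8.

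Within the fibroblasts Sfrp2 was highest where Tnmd, the tendon membrane protein tenomodulin, was also present. Wild-type fibroblasts with 2 or more Tnmd UMIs had 290 CPM of Sfrp2 against 89.9 in the others, a ratio of 3.23 (2.69 to 3.88), and mutant fibroblasts had 479 against 296, a ratio of 1.62 (1.49 to 1.76). Fibroblasts with Pi16, a marker of adventitial fibroblasts, had less Sfrp2 than those without, by 1.71-fold (1.40 to 2.10) in the wild-type and 1.77-fold (1.56 to 2.01) in the mutant library. Wif1 had the same preference at a lower level, with 65.2 against 17.4 CPM by Tnmd in wild-type fibroblasts and 42.8 against 7.23 in mutant fibroblasts.

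Sfrp1 (ENSMUSG00000031548, chromosome 8, 23411502 to 23449632, plus strand), a close relative of Sfrp5, was the antagonist with the largest excess in the mutant library among members with over 20 UMIs in each class compared. Fibroblasts had 155 Sfrp1 UMIs in the wild-type library and 966 in the mutant library, at 46.5 (39.5 to 54.4) and 160 (150 to 170) CPM, a ratio of 3.43 (2.90 to 4.10). The share of fibroblasts with a UMI was 11.1% and 21.6%, and 6.11% and 14.1% after thinning. Scx-high cells had little of it, 25 UMIs or 5.09 CPM in the wild-type and 30 UMIs or 27.7 CPM in the mutant library, a ratio of 5.45 (3.10 to 9.66). Of the 30 mutant UMIs 12 were in 1 cell, and 28 were in cells with under 100 Scx UMIs per 10000, and the upper 2 Scx bins held 1 UMI each in the mutant and 14 and 9 in the wild-type library. Unlike Sfrp2, Sfrp1 in mutant fibroblasts was at 172.5 CPM in cells with under 2 Tnmd UMIs and at 137 in those with 2 or more, a ratio of 0.794 (0.690 to 0.912).

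Sfrp4 (ENSMUSG00000021319, chromosome 13, 19623104 to 19632994, plus strand), known from bone and connective tissue, was almost wholly a fibroblast transcript. It had 598 UMIs in wild-type and 810 in mutant fibroblasts, at 179 (165 to 194) and 134 (125 to 143) CPM, and 98.7% and 98.9% of its UMIs lay in that class. In Scx-high cells there were 8 UMIs in the wild-type library and 6 in the mutant library. The wild-type ratio of Scx-high cells to fibroblasts was 0.00907 (0.00390 to 0.0180), and 0.0331 when the Scx threshold was lowered to 15 per 10000. Sfrp4 was 1.34-fold (1.203 to 1.49) lower in mutant than in wild-type fibroblasts, and its direction turned to 1.55-fold higher when all cells were summed. Fibroblasts were 35.0% of the wild-type and 73.7% of the mutant cells, and the part of this in the turn was not tested. Pi16 marked the cells with most Sfrp4, at 310 against 92.1 CPM in wild-type and 207 against 114 in mutant fibroblasts. The ratios were 3.37 (2.82 to 4.03) and 1.81 (1.56 to 2.10). Its summed level by Tnmd differed in direction, with a ratio of 1.22 (1.02 to 1.45) for wild-type and 0.473 (0.397 to 0.561) for mutant fibroblasts with 2 or more Tnmd UMIs over the rest. The share of cells with a Sfrp4 UMI did not. It was 11.8% with Tnmd against 20.9% of the rest in wild-type fibroblasts, and 8.13% against 13.3% in mutant fibroblasts. The wild-type side with Tnmd held 190 UMIs in 27 cells.

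Sfrp5 (ENSMUSG00000018822, chromosome 19, 42197971 to 42202252, minus strand) and Frzb (ENSMUSG00000027004, chromosome 2, 80411970 to 80447625, minus strand), the remaining frizzled-related proteins, were found in few cells. Wild-type cells had 22 Sfrp5 UMIs in 4 cells, of which 19 were in 1 Scx-high cell, and mutant cells had 90 UMIs in 31 cells. The mutant UMIs lay in Scx-low fibroblasts, with 59 UMIs in 17 cells, and in other cells, with 30. Of the 30, 23 UMIs lay in 11 of the 36 cells of the Schwann group, where Sfrp5 stood at 251 CPM (159 to 377). That group had 1 cell in the wild-type library, so Sfrp5 there could not be compared. In mutant fibroblasts 6 of the 59 UMIs were in cells with 5 or more UMIs of the Schwann list, and the other 53 were in 14 cells. The ratio of mutant to wild-type fibroblasts, 16.3 (4.30 to 137), rests on 59 against 2 UMIs, was 26.3 with a fibroblast rule of 10 UMIs and 4.69 over all cells, and Sfrp5 passed the minimum of 50 UMIs through the mutant side alone. Frzb, also called Sfrp3 and known from cartilage, had 15 UMIs in the wild-type library and 35 in the mutant library, of which 9 and 30 were in fibroblasts, at 2.70 and 4.96 CPM. The ratio of 1.84 (0.850 to 4.398) did not set the libraries apart at this depth.

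Dkk2 (ENSMUSG00000028031, chromosome 3, 132085292 to 132180304, plus strand), which encodes a Dickkopf protein that binds the Lrp co-receptors, was a broad fibroblast transcript. It stood at 119 (108 to 131) CPM in wild-type and 144 (134 to 154) in mutant fibroblasts, a ratio of 1.21 (1.07 to 1.36), and was found in 25.6% and 28.7% of them. In Scx-high cells it was at 58.4 (51.8 to 65.6) CPM in the wild-type library and 35.1 (24.8 to 48.2) in the mutant library, a ratio of 0.601 (0.417 to 0.845). Dkk2 was thus higher in mutant fibroblasts and lower in mutant Scx-high cells. The gap in Scx-high cells was largest at 300 or more Scx UMIs per 10000, with 54 UMIs in 335 wild-type cells and 1 UMI in 66 mutant cells, a ratio of 0.0741 (0.00184 to 0.431). It was 0.233 (0.0280 to 0.852) in Scx-high cells with under 5 fibroblast UMIs, from 2 mutant UMIs.

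Dkk3 (ENSMUSG00000030772, chromosome 7, 112116017 to 112159057, minus strand), the divergent Dickkopf gene, was the member that differed least between the libraries. It stood at 187 (175 to 199) CPM in wild-type and 181 (157 to 208) in mutant Scx-high cells, and at 93.0 (83.0 to 104) and 92.6 (85.1 to 101) in fibroblasts. The ratios were 0.969 (0.826 to 1.13) and 0.995 (0.865 to 1.15). A Dkk3 UMI was found in 48.6% of wild-type and 49.4% of mutant Scx-high cells, and in 23.4% and 22.2% after thinning. Over the whole libraries Dkk3 was 1.42-fold (1.30 to 1.56) lower in the mutant library, in which Scx-high cells were 9.07% rather than 49.8% of cells. Outside tendon cells and fibroblasts, 11 of the 46 wild-type cells of the pericyte and smooth muscle group had Dkk3, at 128 CPM (77.0 to 199.6), against 4 of 71 in the mutant library. The fibroblast ratio was 1.24 without the fibroblasts that carried UMIs of other cell type lists. In all fibroblasts the pericyte list was at 4961 CPM in wild-type and 628 in mutant cells and the endothelial list at 121 and 83.3, while the immune list was at 66.9 and 104 and the Schwann list at 2.40 and 269, and their part in this ratio was not tested. In Scx-high cells with under 5 fibroblast UMIs the Dkk3 ratio was 0.623 (0.367 to 0.992), from 18 mutant UMIs.

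Side by side, the members differed in direction between the libraries. In Scx-high cells 5 members had 50 or more UMIs, of which Sfrp1 was 2-fold or more higher in the mutant library, as were 10.7% of 7467 genes, and Wif1 was 2-fold or more lower, as were 5.87%. The median log2 ratio was −0.05 for these members and 0.28 for all genes, so that Sfrp2, at 0.32, lay near the median gene and Dkk3, at −0.05, lay under it. In fibroblasts 7 members had 50 or more UMIs, of which Sfrp1, Sfrp2 and Sfrp5 were 2-fold or more higher, as were 4.14% of 9584 genes, and 0 were 2-fold or more lower, as were 5.08%. Sfrp5 met the minimum through the mutant side alone, with 59 against 2 UMIs, and without it 2 of 6 members were higher. The median log2 ratio of the 7, Sfrp5 among them, was 0.27 and that of all genes −0.02, so it is no support for a direction. Summed over all cells, 4 of 8 members, Sfrp1, Sfrp2, Sfrp5 and Frzb, were 2-fold or more higher in the mutant library, as were 6.14% of 10998 genes, and Wif1 was lower by 10.4-fold (9.26 to 11.8), as were 3.98% by at least 2-fold. Sfrp5 met the minimum through the mutant side alone, with 90 against 22 UMIs, and Frzb had 35 and 15. Fibroblasts were 35.0% of wild-type and 73.7% of mutant cells, and the part of class make-up in these sums was not tested.

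**Figure D5:**
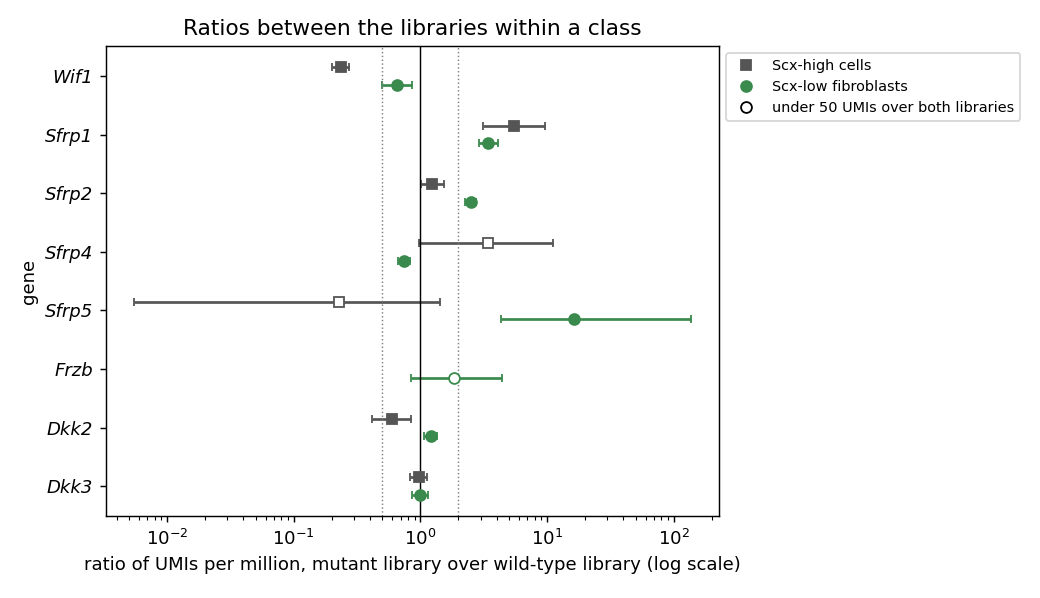
Ratio of CPM in the mutant over the wild-type library (log scale) for each antagonist, in Scx-high cells (squares) and Scx-low fibroblasts (circles), with exact conditional 95% intervals. Open symbols have under 50 UMIs over both libraries, dotted lines mark 2-fold, and Frzb in Scx-high cells is left out because the mutant cells had 0 UMIs. Wif1 in Scx-high cells lies at 0.236, Sfrp1 and Sfrp2 in fibroblasts at 3.43 and 2.49, and both Dkk3 ratios near 1.

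Sfrp2 was present together with Sfrp1 and with Dkk2 in more mutant fibroblasts, and with Dkk3 in fewer, than independent shares would give. Among 1739 mutant fibroblasts thinned to 1500 UMIs, Sfrp1 and Sfrp2 were both present in 95 cells, where their shares would give 52.8 if independent, and 38.6% of cells with Sfrp1 had Sfrp2 against 18.6% of those without. Sfrp2 and Dkk2 were both present in 105 cells, where 65.0 would be given. Sfrp2 and Dkk3 shared 28 cells, where 39.9 would be given, and Sfrp2 and Sfrp4 shared 27 where 28.5 would be given. Among 785 thinned wild-type fibroblasts Sfrp2 went with Sfrp1, Dkk2 and Dkk3 in the same directions, from fewer cells. It was found with Sfrp1 in 12 cells where 4.28 would be given, and with Dkk2 in 16 where 10.7 would be given. With Dkk3 it shared 3 cells where 8.29 would be given, and with Sfrp4 13 where 7.31 would be given. These counts are descriptions over cells of 1 library per condition.

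Over 16 cell groups of both libraries, the genes whose levels were most like those of Wif1 were Col11a2, a cartilage-type fibrillar collagen, Cybrd1 and Pcolce2, a procollagen processing enhancer, with Pearson correlations of 0.978, 0.953 and 0.947 of the log2 level. Sfrp1 was most like Tnfaip6, with 0.953, Sfrp4 most like Efemp1, with 0.955, and Dkk2 most like Clec3b, with 0.950. Dkk3 was most like P3h4, a collagen prolyl 3-hydroxylase family member, with 0.960, and Sfrp2 most like Gxylt2, with 0.888. The groups share libraries, 1 of them is a single cell, and 4121 genes were searched, so these are descriptions.

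Other genes of the pathway were read at the same depth, beside shares over all genes of 10.7% higher and 5.87% lower in Scx-high cells and 4.14% and 5.08% in fibroblasts. With so few genes per list, the counts set no list apart from all genes. Among Wnt ligands in Scx-high cells, 1 of the 3 measured at 50 or more UMIs was 2-fold or more higher in the mutant library and 0 were lower. That gene was Wnt9a, a ligand of synovial joint cells, at 6.71 CPM in wild-type and 52.6 in mutant Scx-high cells, 7.84-fold (5.02 to 12.4) higher. In fibroblasts 1 of 5 ligands, Wnt2, was lower, at 36.0 and 8.93 CPM, 4.03-fold (2.90 to 5.67). Of 7 receptors in Scx-high cells 1 was higher and 2 were lower. Fzd8 was 2.68-fold (1.59 to 4.45) higher. The co-receptor gene Lrp5 was 7.60-fold (2.90 to 28.3) lower, with 138 wild-type and 4 mutant UMIs, and Fzd9 7.16-fold (1.90 to 60.4) lower, with 65 and 2. Of 11 receptors in fibroblasts 0 reached 2-fold in either direction. Sostdc1, the only other antagonist measured, was at 21.2 and 1.85 CPM in Scx-high cells, 11.5-fold (3.09 to 95.9) lower with 2 mutant UMIs, and did not reach 2-fold in fibroblasts, at 18.9 and 16.2. In Scx-high cells Lrp5, Fzd9 and Sostdc1 met the minimum of 50 UMIs through the wild-type side alone, and Wnt9a through the mutant side alone. The counts are therefore no support for a direction of these genes.

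Genes that respond to Wnt signalling did not differ in one direction. Of 5 target genes measured in Scx-high cells 2 were 2-fold or more higher and 1 was lower in the mutant library, where 10.7% and 5.87% of all genes were. Nkd2, an intracellular inhibitor of the pathway, was 3.28-fold (2.31 to 4.63) higher and its relative Nkd1 2.49-fold (1.64 to 3.95) lower. Myc was 2.96-fold (1.77 to 4.87) higher in Scx-high cells and 4.11-fold (2.94 to 5.90) higher in fibroblasts. In fibroblasts, where 4.14% of all genes were higher and 5.08% lower, 1 of 5 targets was higher and 2 were lower, Nkd1 by 2.51-fold (1.96 to 3.22) and Ccnd1, the gene of cyclin D1, by 3.09-fold (2.40 to 3.99). Of the intracellular components, 1 of 10 in Scx-high cells was lower, Dvl1 at 2.11-fold (1.06 to 4.76), and 0 of 12 in fibroblasts reached 2-fold. Of the R-spondins and their receptors 0 were measured in Scx-high cells, and in fibroblasts 1 of 3 was higher, Lgr5 at 2.11-fold (1.24 to 3.77). In Scx-high cells Nkd1 and Dvl1 met the minimum through the wild-type side alone. Myc and Lgr5 in fibroblasts met it through the mutant side alone. The counts of these lists are therefore no support for a direction either.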

How the data were processed

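The authors deposited UMI counts per gene and cell, without normalization, for 1 wild-type and 1 mutant library, each a pool of 2 pups at P7. Reads were sequenced on an Illumina NextSeq 500, aligned to mm10 and filtered on total UMIs per cell with Cell Ranger, version 2.0 in the methods of the study and 1.2.0 in the submitters' processing notes. All deposited barcodes were used, with no filter and with called doublets kept in (26 wild-type and 8 mutant cells by Scrublet in scanpy 1.11.5, at an expected rate of 2%).

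Classes followed fixed thresholds on each cell's counts. The UMIs of a class were added up and divided by its total. Levels have exact Poisson, shares exact binomial (Clopper-Pearson) and ratios exact conditional intervals, computed with SciPy 1.17.1 and NumPy 2.4.6 in Python 3.11.15. For shares at equal depth, each cell was thinned to 1500 UMIs, and shallower cells were left out, 89 and 19 of the wild-type and mutant Scx-high cells and 43 and 171 of the fibroblasts. A count of 0 was read against a floor of 3 UMIs. Levels are 3′ UMI counts and were not divided by gene length. Data were simulated for the 4 comparisons between Scx-high cells and fibroblasts or between libraries, with 200 changed genes each. From 95.8% to 96.2% of intervals held the true fold. The simulated class totals were Poisson counts, as the intervals assume, with no clumping of UMIs in cells and no variation between pups. The simulation therefore checks the computation only and cannot show how the intervals cover such variation.

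Other cells were grouped by their haemoglobin share of over 50% or by the marker list with the most UMIs, 5 or more. The members were named in full, and of each other Wnt pathway list at most the 3 genes with the largest ratio among those with 50 or more UMIs. Likeness was the Pearson correlation of log2 of CPM plus 10 over genes with 500 or more UMIs. The members, lists and splits were chosen with earlier results of these data known. Coordinates are from GENCODE M21 on GRCm38 and promoter windows, 250 bases before to 50 after a start, from RefSeq.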

Additional observations from a re-analysis of the deposited data

Results flagged for a closer look

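The scan for opposite directions covered ratios between the 2 classes, between the libraries, and by Pi16 or Tnmd in fibroblasts. In it, 3 members had effects in opposite directions between libraries or classes, with each counting interval on its own side of 1. Splits outside the scan also held such pairs. Among them were the mutant to wild-type ratios of Sfrp2 in Scx-high cells with and without fibroblast UMIs (1.88 and 0.134). Those of Wif1 in 2 low bins of Scx (1.81 and 0.390) were others. The difference itself was not tested in any of them, since there was 1 library per condition. Sfrp5 was 6.78-fold higher in Scx-high cells than in fibroblasts of the wild-type library and had a ratio of 0.0946 in the mutant library, and 19 of its 20 UMIs in wild-type Scx-high cells were in 1 cell. Dkk2 had a ratio of mutant to wild-type of 0.601 in Scx-high cells and 1.21 in fibroblasts. Sfrp4 had a ratio of fibroblasts with 2 or more Tnmd UMIs to the other fibroblasts of 1.22 among wild-type and 0.473 among mutant cells. By share of cells with a Sfrp4 UMI the direction was the same in both libraries, 11.8% against 20.9% in wild-type and 8.13% against 13.3% in mutant fibroblasts.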

How the results depend on the processing

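Of 313 ratios of members recomputed under other settings, 306 kept their direction and 7 changed it. Of the ratios at 2-fold or more, 189 stayed there and 7 fell under it, and 10 others reached it. The cause of these shifts was not tested. The 7 changes were those of Sfrp2 in Scx-high cells without fibroblast UMIs (0.134), Dkk2 in Scx-high cells and Sfrp4 in fibroblasts against all cells summed (1.51 and 1.55), Dkk3 in Scx-high cells at a Scx threshold of 60 (1.02) and in fibroblasts at a threshold of 15 (1.0008) and without fibroblasts with UMIs of other lists (1.24), and Wif1 in Scx-high cells with 1 or more Col2a1 UMIs (0.594), the last 2 chosen after seeing the data. The mutant ratio of Scx-high cells to fibroblasts was 0.651 for Sfrp5, 0.0351 for Sfrp2 and 0.0883 for Dkk2 without Scx-high cells with fibroblast UMIs. For Dkk3 it was 1.23 in place of 1.95, from 18 UMIs in the Scx-high cells that were kept.

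Wif1 in wild-type Scx-high cells was at 739.7 CPM without the cells with fibroblast UMIs and 969.9 without the 20 most abundant genes in the total, and in 54.5% of cells after thinning. Its ratio to fibroblasts was 31.7 at a Scx threshold of 15 per 10000 and 29.4 without called doublets, and in the mutant library 12.4 without the cells with fibroblast UMIs. Its mutant to wild-type ratio was 0.335 without those cells and 0.0960 over all cells. Sfrp2 in mutant fibroblasts was at 391 CPM without fibroblasts with UMIs of other cell type lists, a choice made after seeing the data, 379 as a mean over cells and 409.5 without the 20 most abundant genes, and in 21.4% of cells after thinning. Its fibroblast ratio was 2.87 over all cells and 2.16 without the fibroblasts with UMIs of other lists, and that of Sfrp1 was 6.31 over all cells. The pathway genes past 2-fold in Scx-high cells were 9, and 17 with a minimum of 20 UMIs.

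No paired analysis was possible because there was 1 library per condition. For the same reason no replicate could be left out. Depth limits the values of Sfrp5 and Frzb and those of the mutant Scx-high cells with under 5 fibroblast UMIs, which were 53.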
